A study of Mus musculus with 24 samples.

Results

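The genes described here encode the tumour necrosis factor (TNF) superfamily, its receptors, and the signalling proteins that carry their signals to the transcription factor NF-kB. They were taken by gene symbol alone, as every gene of the panel whose symbol begins with Tnf, Traf, Nfkb, Ikbk or Rel together with Cd27, Cd40, Cd40lg, Fas, Fasl, Ltbr, Chuk and Bcl3. The B cell factors of the Tnfsf13, Tnfrsf13 and Tnfrsf17 names and Ikbkap were left out. This gave 39 of the 547 genes measured, with 10 ligands, 10 receptors, 6 adaptors, 4 kinases of the IkB kinase family, 4 NF-kB subunits and 5 inhibitors or feedback proteins.

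TNF family ligands are made mostly by immune cells and bind receptors on lymphocytes, myeloid cells, epithelium and stroma. The receptors recruit TRAF adaptor proteins, and signalling then follows either of a pair of routes. In the canonical route the IkB kinase complex marks the inhibitor IkB for destruction and releases dimers that contain Rela. In the non-canonical route, used by receptors such as Ltbr and Cd40, the Nfkb2 precursor is processed and pairs with Relb. In the intestine these routes are known for their part in barrier defence, in the response to microbial products and in the formation of lymphoid follicles.

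Immune transcripts were counted in the terminal ileum of C57BL/6 mice of both sexes at week 7. PAT1 mice had received a single course of the macrolide tylosin as nursing pups, by way of the treated dam, PAT3 mice were given further courses, to a total of 3, and Control mice drank water without antibiotic. By the labels, Control and PAT1 each held 7 animals, 4 of them male and 3 female, and PAT3 held 10, with 4 males and 6 females. The study's own legend gives other sizes for the antibiotic groups, and the labels were followed. Whole litters were assigned to a treatment, so an effect of litter or cage cannot be told apart from treatment, and the p-values treat mice as independent.

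Totals ranged from 171671 to 782392 counts per sample. A set of 4 samples lay under 400000 counts, namely PAT1 replicates 1, 2 and 3, all male, and PAT3 replicate 7, a female, and results that rest on them are given with and without them. None of the 39 genes had a value at 0 counts in any sample, and 9 of them had a median count under 20 (Cd27, Cd40lg, Fasl, Tnfrsf8, Tnfrsf9, Tnfsf8, Tnfsf11, Tnfsf14 and Tnfsf18). No filter on low values was applied, and all 39 were tested. The mean log2 level of 8 enterocyte markers was between 11.98 and 13.76 in every sample, and no marker of any cell type list was at 0 in a sample. Levels below are log2 normalized counts, and differences are log2 fold changes from limma with p-values adjusted over all 547 genes. A gene is termed called at an adjusted p under 0.05. Levels of different genes are not compared, since each has its own probe.

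In PAT1, 6 of the 39 genes were called against Control. The ligand Tnfsf15, the subunit Relb and the adaptors Traf2 and Traf4 were higher, whereas Nfkbiz and the receptor Tnfrsf9 were lower. The share of all genes called in this comparison was 18.5% (7.31% higher and 11.2% lower), and 15.4% of the TNF and NF-kB genes were called. In PAT3, 13 genes were called (33.3%, against 31.8% of all genes, of which 13.9% were higher and 17.9% lower). Higher were Tnfsf12, Tnfsf15, Traf2, Traf3, Traf4, Ikbkg, Relb, Nfkb2 and Rela, and lower were Nfkbiz, Cd27, Cd40lg and Tnfsf8. The genes as a whole were thus called about as often as the panel. By the F-test among the 3 groups 10 were called, beside 34.6% of all genes. By the methods' test, which treats each gene separately, Tnfrsf9 in PAT1 (adjusted p = 0.151) and Cd40lg, Tnfsf8 and Traf3 in PAT3 (adjusted p = 0.0993, 0.105 and 0.0783) did not pass. That test called 5 of the 39 genes in PAT1 and 11 in PAT3, beside 13.3% and 25.2% of all genes. The 11 include a gene that limma did not call. Both PAT groups were compared with the same Control samples, and 5 genes were called in both (Tnfsf15, Traf2, Traf4, Relb and Nfkbiz). The median log2 fold change over the 39 genes was 0.08 in PAT1 and 0.08 in PAT3, beside 0.01 and 0.03 over all genes. Re-centring each sample on its median raised the latter to 0.15 and 0.22 and changed the split of called TNF and NF-kB genes. In PAT1 it became 4 higher and 1 lower in place of 4 and 2, with 10.4% and 8.41% of all genes. In PAT3 it became 14 higher and 2 lower in place of 9 and 4, with 27.8% and 14.3% of all genes.

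**Figure D1:**
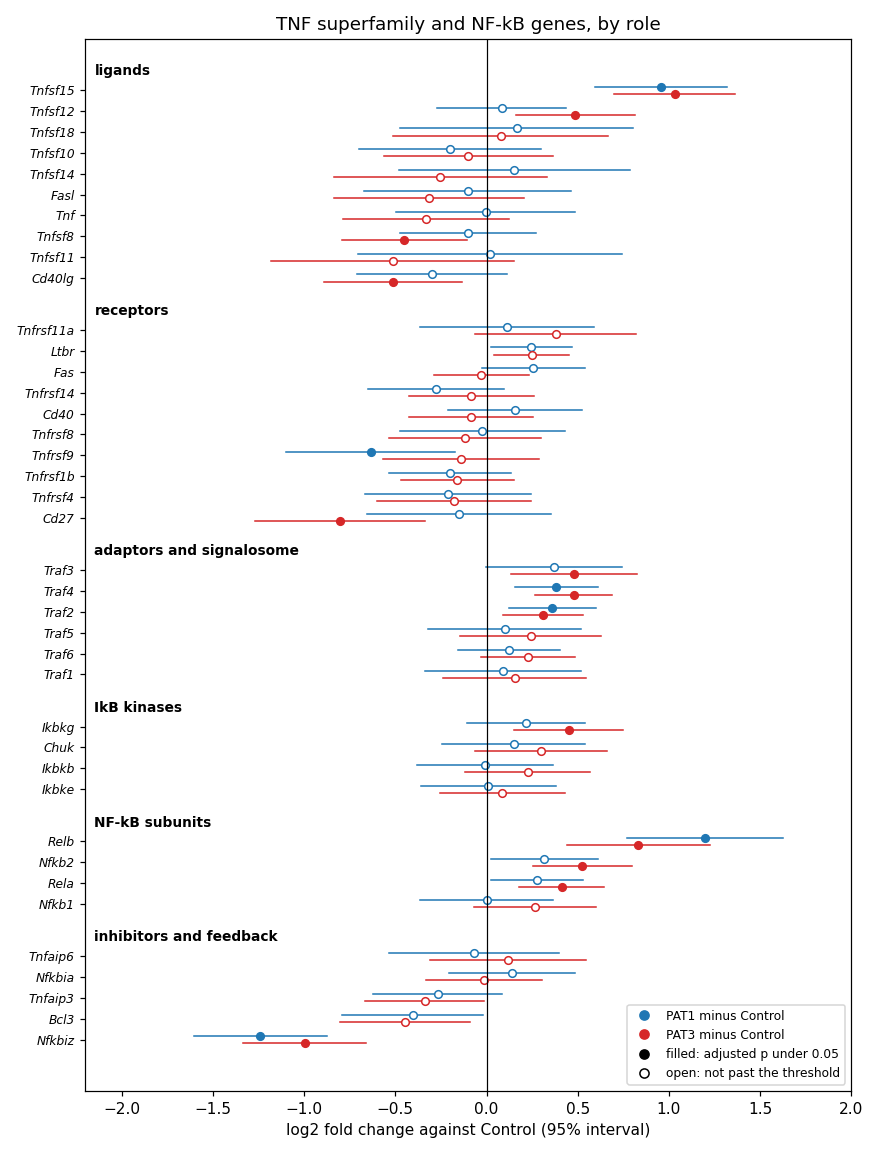
Log2 fold change against Control (horizontal axis) of each of the 39 TNF superfamily and NF-kB genes, grouped by role, with 95% intervals, for PAT1 (blue) and PAT3 (red). Filled points are past an adjusted p of 0.05. The 6 adaptors and 4 NF-kB subunits have no estimate below 0 in either group, and Nfkbiz has the lowest estimate in both.

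The counts by role, which are small and were not tested against each other, are to be read beside the 18.5% and 31.8% of all genes called. Of the 10 ligands, 1 was called in PAT1 and 4 in PAT3, 2 of these higher and 2 lower. Of the 10 receptors, 1 was called lower in each group. Of the 6 Traf adaptors, 2 were called in PAT1 and 3 in PAT3, all higher, and all 6 had positive estimates in both groups (median 0.24 and 0.28). None of the 4 kinases was called in PAT1 and 1 was called higher in PAT3. The NF-kB subunits had 1 and 3 of 4 called, all higher, with medians of 0.30 and 0.47. Of the 5 inhibitors and feedback genes 1 was called lower in each group, and 4 of 5 estimates were negative in both (median -0.27 and -0.34).

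Tnfsf15 rose in both PAT groups. It encodes TL1A, a ligand that costimulates T cells and innate lymphoid cells through death receptor 3. Its log2 level ran from 4.47 to 5.38 in Control with a median of 5.13, from 5.40 to 6.56 in PAT1 with a median of 6.01, and from 5.68 to 6.51 in PAT3 with a median of 6.12. Every PAT1 and PAT3 sample lay above every Control sample. Such complete separation from Control, in either direction, was seen for 4 of the 39 genes in PAT1 and 2 in PAT3, beside 6.22% and 9.32% of all genes. The mean rose from 5.07 ± 0.29 (SD, n = 7) in Control by 0.96 in PAT1 (SE 0.18, 1.94-fold, adjusted p = 0.000369) and by 1.03 in PAT3 (SE 0.16, 2.04-fold, adjusted p = 2.25e-05). The PAT groups differed by 0.07 (95% interval -0.26 to 0.41). The T cell marker mean, given below, moved with group. With it as a covariate the PAT1 difference was 0.81 (adjusted p = 0.00976) and the PAT3 difference was 0.73 (adjusted p = 0.168). The covariate does not overlap between Control and PAT3, so for PAT3 that fit cannot separate it from treatment. The promoter window of Tnfsf15 in RefSeq (GRCm38.p6, minus strand, chr4:63745010-63745309) is printed because this gene had the largest rise among the ligands. It holds no match to the kB consensus described with the subunits below, hence no capitals.
Tnfsf15: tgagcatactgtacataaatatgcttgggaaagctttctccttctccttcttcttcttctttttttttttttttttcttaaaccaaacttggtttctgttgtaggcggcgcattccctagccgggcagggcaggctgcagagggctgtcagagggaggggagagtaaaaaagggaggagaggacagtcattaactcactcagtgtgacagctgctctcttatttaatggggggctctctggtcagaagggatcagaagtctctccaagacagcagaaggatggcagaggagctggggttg

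Tnfsf14 encodes LIGHT, a ligand of Tnfrsf14 and of the lymphotoxin beta receptor. It was not called in either group (log2 fold change 0.15, SE 0.31, adjusted p = 0.788 in PAT1 and -0.25, SE 0.28, adjusted p = 0.508 in PAT3). Its level ran from 3.29 to 3.94 in Control (median 3.72), from 2.75 to 4.90 in PAT1 (median 3.30) and from 2.87 to 4.36 in PAT3 (median 3.29). The 4 samples with the lowest totals held the 4 highest values, 4.36 to 4.90, whereas the other 20 lay between 2.75 and 3.94. The counts behind these values were 12 to 21 in the 4 samples and 7 to 17 in the others. Without the 4 samples Tnfsf14 was lower than Control in PAT1 (-0.60, adjusted p = 0.0159) and in PAT3 (-0.37, adjusted p = 0.0395), and with the size factor as a covariate the PAT1 difference was -0.32 (adjusted p = 0.223). That low totals caused the high values was not tested.

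Tnfsf12, which encodes TWEAK, a ligand active on epithelial and stromal cells, was higher in PAT3. Its level was 6.07 to 6.80 in Control (median 6.55), 6.22 to 6.89 in PAT1 (median 6.69) and 6.17 to 7.59 in PAT3 (median 7.00). The groups overlapped, and 9 of 10 PAT3 samples lay above the Control mean. The PAT3 difference was 0.49 (SE 0.16, adjusted p = 0.0206), and that in PAT1 was 0.08 (adjusted p = 0.795). It lost its call without Control replicate 1 or 7, with an adjusted p of 0.0525 to 0.0544. The mean of 6 stromal and endothelial markers lay between 7.85 and 8.47 in Control and between 7.77 and 9.12 in PAT3, and its part in this difference was not tested.

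Lower in PAT3 were the T cell ligands Cd40lg and Tnfsf8 and Cd27, a TNF family receptor of T cells. In whole tissue, fewer cells of a type and less RNA per cell cannot be told apart. Cd40lg, the ligand by which helper T cells activate B cells, ran from 3.73 to 4.30 in Control (median 3.94), from 3.17 to 4.19 in PAT1 (median 3.65) and from 2.68 to 4.12 in PAT3 (median 3.42). It was lower in 9 of 10 PAT3 samples than the Control mean, by a log2 difference of -0.51 (SE 0.18, adjusted p = 0.0351). In PAT1 the difference was -0.30 (adjusted p = 0.345). Tnfsf8, which encodes the CD30 ligand, ran from 3.63 to 4.73 in Control (median 4.41), from 3.85 to 4.67 in PAT1 (median 4.35) and from 3.45 to 4.48 in PAT3 (median 3.83). Its difference was -0.45 in PAT3 (SE 0.17, adjusted p = 0.0418, lower in 9 of 10) and -0.10 in PAT1 (adjusted p = 0.750). Both ligands overlapped Control and lost the call with 1 sample left out, at 7 of 24 samples for Cd40lg (adjusted p 0.0526 to 0.0757) and at 12 for Tnfsf8 (0.0533 to 0.0959).

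Cd27, the receptor of CD70 on T and memory lymphocytes, ran from 4.49 to 5.41 in Control (median 4.64), from 3.86 to 5.52 in PAT1 (median 4.55) and from 3.09 to 4.74 in PAT3 (median 3.86). It fell in PAT3 by 0.80 on the log2 scale (SE 0.23, 1.75-fold, adjusted p = 0.00770, lower in 9 of 10) and differed from Control by -0.15 in PAT1 (adjusted p = 0.717). Between the PAT groups the difference was -0.65 (95% interval -1.12 to -0.19, adjusted p = 0.0719). In PAT3 the T cell markers were lower as well. The mean log2 level of 12 such markers was 6.20 to 6.42 in Control, 5.37 to 6.39 in PAT1 and 4.83 to 5.82 in PAT3, so PAT3 lay wholly below Control. Of the 12, 9 were called lower in PAT3 and 3 in PAT1, beside 17.9% and 11.2% of all genes. With the mean of these markers as a covariate the PAT3 differences were 0.29 for Cd27 (adjusted p = 0.756), 0.28 for Cd40lg (0.742) and -0.24 for Tnfsf8 (0.798). As the values of the covariate do not overlap between Control and PAT3, that fit cannot separate the pair.

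The ligands that did not pass had estimates from -0.30 (Cd40lg) to 0.17 (Tnfsf18) in PAT1 and from -0.51 (Tnfsf11) to 0.08 (Tnfsf18) in PAT3. Tnf, the founding member of the family, ran from 4.52 to 5.41 in Control (median 5.01), from 4.17 to 5.57 in PAT1 (median 5.07) and from 4.08 to 5.75 in PAT3 (median 4.53), with overlap throughout. Its differences were -0.004 (95% interval -0.50 to 0.49) and -0.33 (-0.79 to 0.12). Tnfsf11, which encodes RANKL, the ligand of Tnfrsf11a, differed by -0.51 in PAT3 (adjusted p = 0.234), with a wide interval from -1.18 to 0.15. Tnfsf10, the death ligand TRAIL, differed by -0.20 and -0.10, and Fasl by -0.10 and -0.31.

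Among the receptors, Tnfrsf9 was called lower in PAT1. It encodes 4-1BB, a costimulatory receptor of activated T cells and natural killer cells. Levels ran from 3.01 to 4.33 in Control (median 3.53), from 2.17 to 3.65 in PAT1 (median 3.17) and from 2.66 to 3.95 in PAT3 (median 3.53). All 7 PAT1 samples lay below the Control mean, yet the ranges overlapped. The difference was -0.64 in PAT1 (SE 0.22, adjusted p = 0.0495) and -0.14 in PAT3 (adjusted p = 0.613). The median counts were only 15, 7 and 12.5, and the call was lost without any one of 18 of the 24 samples (adjusted p 0.0511 to 0.130). Receptors that did not pass differed from Control by -0.28 (Tnfrsf14) to 0.26 (Fas) in PAT1 and by -0.18 to 0.38 (Tnfrsf11a, adjusted p = 0.179) in PAT3. Ltbr, the receptor that drives the non-canonical route, had a level of 9.93 to 10.28 in Control, 10.15 to 10.68 in PAT1 and 10.06 to 10.58 in PAT3. Its difference was 0.25 in both groups (adjusted p = 0.129 and 0.0585).

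The Traf adaptors link receptors to the kinases, and Traf2 and Traf3 also hold the non-canonical route in check by keeping its kinase NIK at a low level. Traf4 was the adaptor most clearly higher. Its level ran from 6.96 to 7.49 in Control (median 7.27), from 7.50 to 7.89 in PAT1 (median 7.64) and from 7.44 to 8.0 in PAT3 (median 7.73). PAT1 lay wholly above Control, and PAT3 overlapped it at a single edge. The differences were 0.38 (SE 0.11, adjusted p = 0.0150) and 0.48 (SE 0.10, adjusted p = 0.000945). Traf2 ran from 7.87 to 8.09 in Control (median 7.96), from 7.97 to 8.73 in PAT1 (median 8.38) and from 7.97 to 8.53 in PAT3 (median 8.29). It was above the Control mean in 6 of 7 PAT1 and 9 of 10 PAT3 samples, with differences of 0.36 (SE 0.12, adjusted p = 0.0283) and 0.31 (SE 0.11, adjusted p = 0.0302). The calls were lost without 1 of 6 samples in PAT1 (adjusted p 0.0504 to 0.0732) and 1 of 5 in PAT3 (0.0501 to 0.0574).

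Traf3 ran from 7.09 to 7.77 in Control (median 7.69), from 7.40 to 8.30 in PAT1 (median 8.09) and from 7.03 to 8.44 in PAT3 (median 8.20). In 9 of 10 PAT3 samples it was above the Control mean, and the exception was PAT3 replicate 7. The difference was 0.48 in PAT3 (SE 0.17, adjusted p = 0.0310) and 0.37 in PAT1 (SE 0.18, adjusted p = 0.176). The call was lost without Control replicate 1 or PAT3 replicate 3 or 4 (adjusted p 0.0503 to 0.0889). Without the 4 samples of lowest total the differences were 0.57 in PAT1 (adjusted p = 0.00156) and 0.60 in PAT3 (adjusted p = 5.68e-05). Traf1, Traf5 and Traf6 were not called, with differences from 0.09 to 0.12 in PAT1 and from 0.15 to 0.24 in PAT3.

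**Figure D2:**
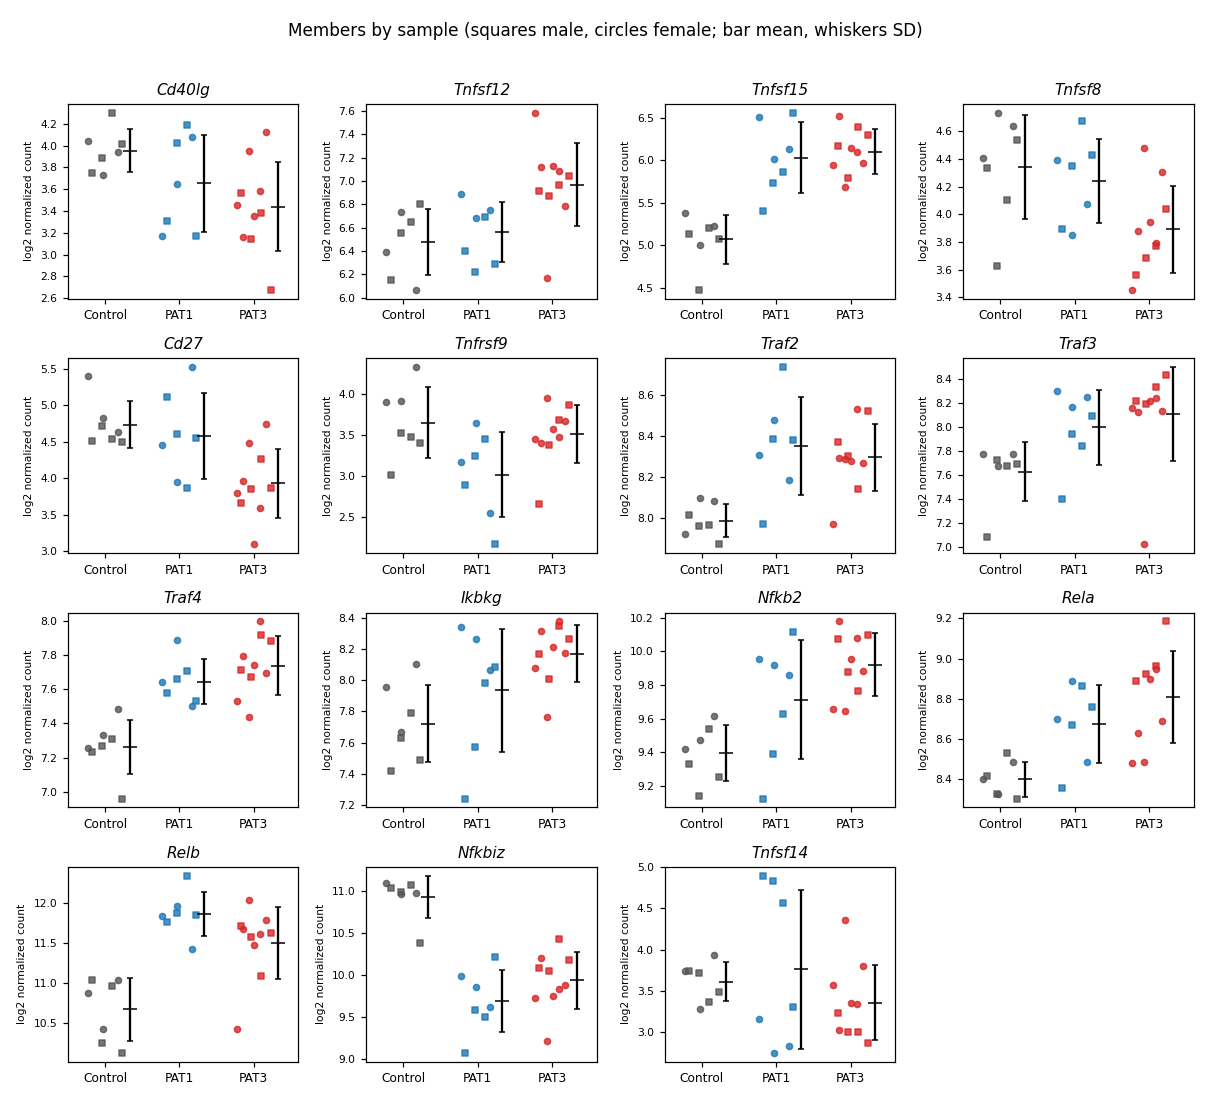
Log2 normalized count (vertical axis, scaled per gene) of the 14 called genes and Tnfsf14 in each mouse, by group, with squares for males and circles for females and the mean and SD beside each group. Control and PAT values are separate for Tnfsf15 in both PAT groups and for Nfkbiz, Relb and Traf4 in PAT1 and Nfkb2 in PAT3, and 3 male PAT1 samples stand high for Tnfsf14.

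Of the IkB kinases, Ikbkg was the one called, in PAT3. It encodes NEMO, the regulatory subunit on which the canonical kinase complex depends. Its level was 7.42 to 8.10 in Control (median 7.67), 7.24 to 8.34 in PAT1 (median 8.07) and 7.77 to 8.38 in PAT3 (median 8.19). All 10 PAT3 samples exceeded the Control mean. The difference was 0.45 in PAT3 (SE 0.14, adjusted p = 0.0197) and 0.22 in PAT1 (adjusted p = 0.387), and without Control replicate 1 the former was 0.40 (adjusted p = 0.0515). For the catalytic kinases Chuk and Ikbkb and for Ikbke the differences were 0.15, -0.01 and 0.01 in PAT1 and 0.30, 0.23 and 0.09 in PAT3, none of them past the threshold.

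Relb had the largest rise of the 39 genes in PAT1. It ran from 10.12 to 11.04 in Control (median 10.87), from 11.42 to 12.34 in PAT1 (median 11.85) and from 10.42 to 12.04 in PAT3 (median 11.62). PAT1 lay wholly above Control, whereas 1 PAT3 sample lay within it. The mean rose from 10.67 ± 0.40 (SD, n = 7) by 1.20 in PAT1 (SE 0.21, 2.29-fold, adjusted p = 0.00031) and by 0.83 in PAT3 (SE 0.19, 1.78-fold, adjusted p = 0.00167). The PAT3 estimate was lower than that of PAT1 by a difference of -0.36 (95% interval -0.76 to 0.03), which was not past the threshold. Nfkb2, whose product p52 is the partner of Relb, ran from 9.14 to 9.62 in Control (median 9.42), from 9.12 to 10.12 in PAT1 (median 9.86) and from 9.65 to 10.18 in PAT3 (median 9.92). Every PAT3 sample was above every Control sample. The differences were 0.53 in PAT3 (SE 0.13, adjusted p = 0.0036) and 0.32 in PAT1 (SE 0.14, adjusted p = 0.140).

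Rela, the main transactivating subunit of the canonical route, ran from 8.30 to 8.53 in Control (median 8.40), from 8.36 to 8.89 in PAT1 (median 8.70) and from 8.48 to 9.19 in PAT3 (median 8.89). All 10 PAT3 samples were above the Control mean. Its difference was 0.41 in PAT3 (SE 0.11, adjusted p = 0.00644) and 0.28 in PAT1 (adjusted p = 0.130). Nfkb1, the precursor of its partner p50, differed by 0.00 in PAT1 (95% interval -0.36 to 0.36) and 0.26 in PAT3 (-0.07 to 0.60). With the T cell marker mean as a covariate the PAT3 differences were 0.90 for Relb (adjusted p = 0.165), 0.27 for Nfkb2 (0.671) and 0.00 for Rela (0.999). That fit called 1.65% of all genes. Its covariate does not overlap between Control and PAT3, so it cannot separate the T cell markers from treatment.

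Several genes of this pathway are textbook targets of NF-kB, so the promoter windows of RefSeq (GRCm38.p6, 250 bases before to 50 after each start) were searched on both strands for the kB consensus of 10 letters. Overlapping matches were allowed. Of the 39 genes, 32 had a window, and 39 windows were found in all because some genes have several starts. Cd40, Cd40lg, Ikbkb, Nfkb1, Nfkbiz, Relb and Tnfsf12 had no window and were not searched. A match lay in 9 of the 39 (23.1%), compared with 12.5% of 495 windows of panel genes and 8.46% of 32851 windows of all genes. Of the windows with a match, 3 belong to Nfkb2, and some of these overlap and count the same match more than once. Genes with a match were Bcl3, Nfkb2, Nfkbia, Tnfaip3, Tnfrsf8, Tnfrsf9 and Traf3. Of these Nfkb2 and Traf3 were called higher in PAT3, Tnfrsf9 was called lower in PAT1, and Bcl3, Nfkbia, Tnfaip3 and Tnfrsf8 were not called. The share of all genes called in either PAT group was 36.2%. A match describes letters and not a bound site. Printed are the windows of Nfkb2 (chr19:46304487-46304786, plus strand), whose stretches begin 39 and 11 bases before the start, of Traf3 (chr12:111166120-111166419, plus strand, 10 bases before), and, as a gene with a match that was not called, of Nfkbia (chr12:55492598-55492897, minus strand, 29 bases before). Capitals mark the matches.
Nfkb2: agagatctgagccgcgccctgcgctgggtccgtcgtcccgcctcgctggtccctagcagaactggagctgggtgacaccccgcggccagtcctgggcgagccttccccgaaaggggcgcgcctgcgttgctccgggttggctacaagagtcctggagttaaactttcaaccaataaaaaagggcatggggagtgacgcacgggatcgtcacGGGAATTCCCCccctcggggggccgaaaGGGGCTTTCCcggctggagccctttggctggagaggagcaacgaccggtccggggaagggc
Traf3: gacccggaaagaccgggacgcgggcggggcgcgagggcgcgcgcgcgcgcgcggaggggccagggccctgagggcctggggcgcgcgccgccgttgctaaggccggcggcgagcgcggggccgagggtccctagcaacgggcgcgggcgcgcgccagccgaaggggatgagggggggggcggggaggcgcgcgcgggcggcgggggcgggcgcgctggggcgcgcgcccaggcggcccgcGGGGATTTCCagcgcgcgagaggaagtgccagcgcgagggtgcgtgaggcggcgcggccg
Nfkbia: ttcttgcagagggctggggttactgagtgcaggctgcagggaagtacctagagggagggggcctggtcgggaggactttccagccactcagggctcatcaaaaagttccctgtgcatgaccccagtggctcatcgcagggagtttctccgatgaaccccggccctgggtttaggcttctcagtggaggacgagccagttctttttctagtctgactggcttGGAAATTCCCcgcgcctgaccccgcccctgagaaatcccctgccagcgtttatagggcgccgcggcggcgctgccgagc

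Nfkbiz fell in both PAT groups. It encodes the nuclear inhibitor IkB zeta, which is induced by microbial products and cytokines and is needed for a subset of NF-kB target genes. Its level ran from 10.38 to 11.10 in Control (median 10.99), from 9.07 to 10.22 in PAT1 (median 9.62) and from 9.22 to 10.43 in PAT3 (median 9.97). PAT1 lay wholly below Control, and PAT3 overlapped it through Control replicate 4, the lowest Control sample. From a Control mean of 10.93 ± 0.25 (SD, n = 7) it fell by 1.24 in PAT1 (SE 0.18, 2.36-fold, adjusted p = 2.85e-05) and differed by -1.0 in PAT3 (SE 0.16, 2.0-fold, adjusted p = 3.70e-05). It was lower than the Control mean in 7 of 7 and 10 of 10 samples. With the T cell marker mean as a covariate Nfkbiz was the one gene of the 39 still called in PAT3 (-1.37, adjusted p = 0.0121), in a fit that called 1.65% of all genes and whose covariate does not overlap between Control and PAT3.

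The other inhibitors did not pass. Bcl3, a nuclear IkB protein that binds p50 and p52, ran from 8.50 to 9.44 in Control (median 8.73), from 7.69 to 8.84 in PAT1 (median 8.53) and from 7.74 to 8.80 in PAT3 (median 8.43). Its differences were -0.41 (adjusted p = 0.151) and -0.45 (adjusted p = 0.0504). Tnfaip3, the feedback protein A20, differed by -0.27 and -0.34 (adjusted p = 0.325 and 0.104). For Nfkbia, the classical IkB alpha, the differences were 0.14 (95% interval -0.20 to 0.48) and -0.01 (-0.33 to 0.30), and for Tnfaip6 they were -0.07 and 0.12.

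To ask whether the further courses changed these genes, PAT3 was compared with PAT1. By the paper, the added PAT3 courses came after weaning and nearer to sampling. The number of courses therefore cannot be told apart from age at exposure or from time since the last course. None of the 39 was called by limma, beside 4.2% of all genes. By the methods' test none of the 39 and none of all genes was called. At an unadjusted p under 0.05 there were 5, beside 28.5% of all genes. Cd27 (p = 0.00803), Tnfrsf9, Fas and Tnfsf8 were among them, as was Tnfsf12, with a difference of 0.40 (95% interval 0.08 to 0.73, p = 0.0168).

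The 4 samples with the lowest totals bore on the counts. Without them, 12 of the 39 genes were called in PAT1, 9 of them higher (13.5% of all genes) and 3 lower (15.4%). In PAT3 the number was 20, with 14 higher (23.4% of all genes) and 6 lower (22.7%). The share of all genes called also rose, to 28.9% and 46.1%. Each gene called in PAT1 in that fit, other than Tnfrsf9, was also called in PAT3. Among these were Ikbkb (0.30, adjusted p = 0.0334, and 0.32, adjusted p = 0.00291) and Tnfrsf11a, the receptor RANK (0.52, adjusted p = 0.0097, and 0.50, adjusted p = 0.00121). Nfkb2 and Ikbkg, called in PAT3 over all samples, were then called in PAT1 too (0.57, adjusted p = 0.00156, and 0.47, adjusted p = 0.00947), and Nfkb1 was called in PAT3 (0.35, adjusted p = 0.00571). Only 1 male was left in PAT1 in that fit, so sex was no longer balanced.

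No gene of the 39 differed between females and males (none called and none at an unadjusted p under 0.05 by limma, beside 0.366% and 11.7% of all genes). Whether the treatment differences themselves differed by sex was tested by an interaction term, in which none was called and 8 had an unadjusted p under 0.05 (0.183% and 18.3% of all genes). Tnfsf14 came closest, with differences in PAT1 of 0.82 in males and -0.74 in females (adjusted p = 0.0612), and 3 of the 4 PAT1 males were among the samples of lowest total. Tnfsf15 rose by 0.92 in males and 1.01 in females in PAT1, and by 1.19 and 0.86 in PAT3. Nfkbiz differed by -1.28 and -1.19 in PAT1, and by -0.69 and -1.24 in PAT3, and with males alone the PAT3 value was not called (adjusted p = 0.0587). Relb differed by 1.37 and 0.97 in PAT1, and with females alone that value was not called (adjusted p = 0.158). Of the 9 genes called higher in PAT3, only Tnfsf15 kept its call with females alone, in a fit that called 10.4% of all genes. With males alone, Traf2 and Tnfsf12 lost theirs and the other 7 kept them, in a fit that called 22.3% of all genes.

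**Figure D3:**
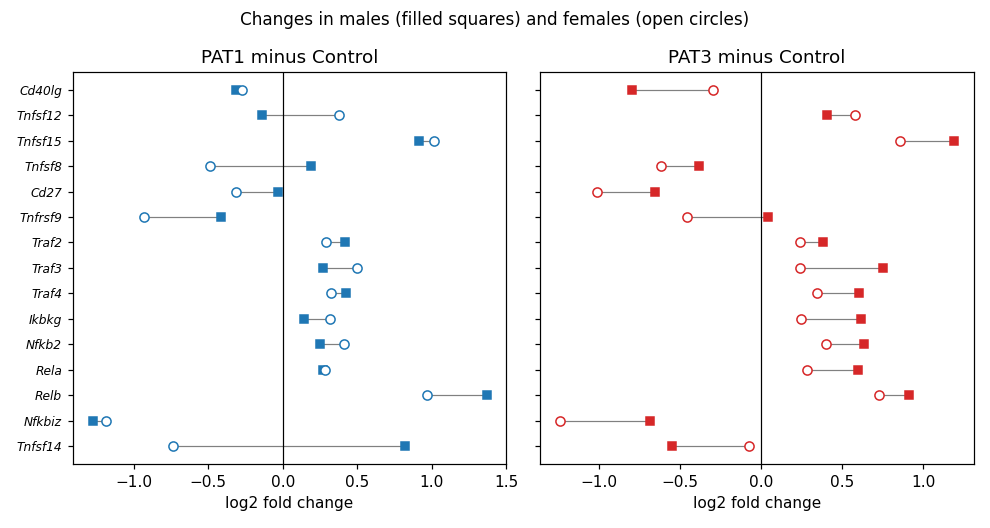
Log2 fold change against Control (horizontal axis) in males (filled squares) and females (open circles) for the 14 called genes and Tnfsf14, in PAT1 (left) and PAT3 (right). Tnfsf15, Relb and Nfkbiz lie on the same side of 0 in both sexes, and Tnfsf14 in PAT1 is 0.82 in males and -0.74 in females.

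Other genes of the pathway were read from lists written from general knowledge. Of 17 genes of TNF and Toll-like receptor signalling outside the rule, 2 were called in PAT1 and 3 in PAT3, all higher. This is 11.76% and 17.65% of the list. Of all genes 18.5% and 31.8% were called in either direction, and 7.31% and 13.9% were called higher. The median differences were 0.16 and 0.13. Cradd, an adaptor with a death domain, was higher by 0.59 (adjusted p = 0.000558) and 0.64 (adjusted p = 3.69e-05). Irak3, which restrains Toll-like receptor signalling, was higher by 0.49 in PAT3 (adjusted p = 0.00414), as was the kinase Prkcd by 0.53 (adjusted p = 0.0467). The lymphotoxin genes Lta and Ltb, ligands of Ltbr chosen after their values were seen, were the genes of this list called lower in PAT3 than in PAT1 (-1.03 and -1.17, adjusted p = 0.0401 for both). In that comparison 4.2% of all genes were called. None of all genes, Lta and Ltb included, was called by the methods' test or with the size factor as a covariate. The same held without the 4 samples of lowest total, and without some single samples, such as PAT1 replicate 1 or PAT3 replicate 1. Lta differed from Control by 0.89 in PAT1 (adjusted p = 0.0381) and -0.14 in PAT3 (adjusted p = 0.700), and Ltb by 0.67 (adjusted p = 0.194) and -0.50 (adjusted p = 0.234). The mean of 10 B cell markers, which mark follicles, was 4.67 to 6.36 in Control, 4.46 to 8.37 in PAT1 and 4.09 to 5.50 in PAT3. With this mean as a covariate none of all genes, Lta and Ltb included, was called between PAT3 and PAT1. How much of the lymphotoxin values goes with these markers was not tested.

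Of 36 genes known as NF-kB targets, PAT1 had 10 called, of which 8 were lower, and PAT3 had 13 called, of which 11 were lower. This is 27.8% and 36.1% of the list, beside 18.5% and 31.8% of all genes. Of all genes 11.2% and 17.9% were called lower. The median differences were -0.18 and -0.16. Nos2, the inducible nitric oxide synthase, differed by -3.05 in PAT3 (adjusted p = 3.11e-09), Ccl5, a T cell chemokine, by -1.97 (adjusted p = 2.25e-05), Socs3, a feedback inhibitor of cytokine signalling, by -1.54 (adjusted p = 1.65e-06) and Cxcl10 by -0.96 (adjusted p = 0.000214). The targets called higher were Cd83 and Cfb in PAT1 and Cxcl12 and Bcl2 in PAT3. The mean of 7 cytotoxic and natural killer markers was 6.44 to 6.83 in Control, 5.25 to 6.58 in PAT1 and 5.21 to 5.95 in PAT3, so that it lay wholly below Control in PAT3, and that of 10 myeloid markers was 7.43 to 8.04, 7.20 to 7.66 and 7.30 to 7.78. Their part in the target values was not tested.

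**Figure D4:**
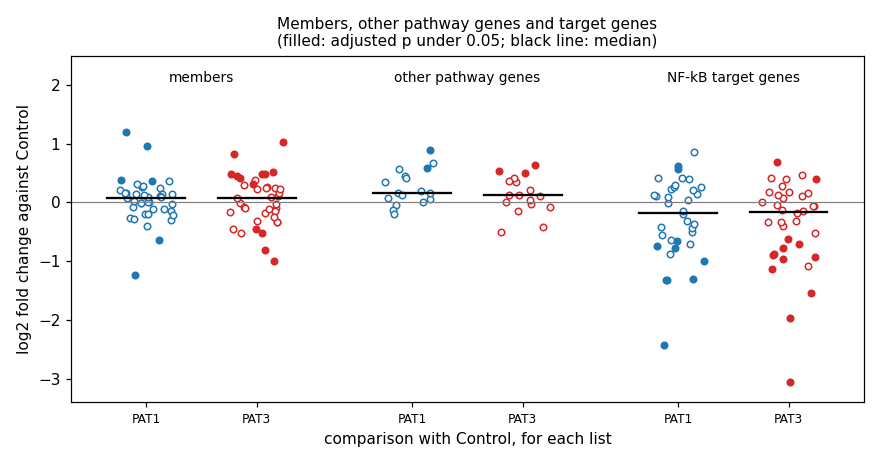
Log2 fold change against Control (vertical axis) of each gene of 3 lists, for PAT1 (blue) and PAT3 (red), with filled points past an adjusted p of 0.05 and black lines at the medians. The medians are 0.08 and 0.08 for the 39 TNF and NF-kB genes, 0.16 and 0.13 for other pathway genes, and -0.18 and -0.16 for NF-kB target genes.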

How the data were processed

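Transcripts of the nCounter GX mouse immunology panel, which counts colour-coded probes hybridized to RNA without amplification, were measured in terminal ileum. The authors normalized counts with DESeq2 and deposited log2 values, used here as deposited. Each value was a whole multiple of a step specific to its sample (100% of 13109 values above 0 counts, tolerance 0.01 counts), so counts and totals (171671 to 782392) were recovered. Relative counting error is largest for genes of few counts. Differences of some genes of higher counts, such as Tnfrsf11a, also changed without the 4 samples of lowest total. Whether background counts were subtracted is not given in the sources used here. Groups and sex came from the labels, and replicate numbers follow sample order only.

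Each gene was fitted in 1 model of 3 groups over all 24 samples with limma (version 3.58.1, R 4.3.3), and p-values were adjusted by Benjamini-Hochberg over 547 genes for each contrast and called under 0.05. The study's methods used aov and TukeyHSD, which was run as an alternative (the methods' test). Counting alternatives used voom on recovered counts. Other alternatives were scaling, a low filter at a mean log2 of 5, a pseudocount of 10, sample weights, covariates, each sex alone and leaving out each sample, and, chosen after seeing the data, leaving out the 4 samples of lowest total and PAT3 replicates 5 and 7. Genes called against Control or between PAT groups, and Tnfsf15 and Tnfsf14, are given in full, the others as ranges with the largest by role. Of the other lists, those with the lowest adjusted p in PAT3 are named. The genes and lists were chosen with earlier results of these data known. All 39 symbols matched RefSeq. Cd70, Tank, Bcl10 and Malt1 were not analysed here.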

Additional observations from a re-analysis of the deposited data

Results flagged for a closer look

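Samples that stood apart from the rest of their group were looked for in 117 gene and group combinations, by the gap of the highest or lowest sample to its nearest neighbour as a share of the range. Chance alone gives about 1 in 20, and 19 were found, in 17 genes. PAT3 replicate 7, one of the 4 samples of lowest total, held 6 of them. In it the low log2 values were 7.8435 for Tnfsf10 (nearest 9.1344), 7.0253 for Traf3, 8.245 for Ikbkb, 9.1825 for Ikbke, 8.7886 for Tnfrsf11a and 8.7546 for Tnfrsf14. PAT3 replicate 5 was low for Chuk (9.7724), Fas (6.9368) and Ltbr (10.0563). PAT1 replicate 1, the sample of lowest total, was high for Tnfrsf1b (7.6327) and low for Traf6 (8.3769). PAT3 replicate 8 was low for Tnfrsf4 (4.3572) and PAT3 replicate 1 for Tnfrsf9 (2.6557). Among Control mice, replicate 2 was low for Tnfsf15 (4.4749) and Fasl (2.89), replicate 1 for Traf3 (7.0853) and replicate 4 for Nfkbiz (10.3787), while replicate 5 was high for Cd27 (5.4081) and replicate 7 for Tnfrsf14 (10.2023).

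Left out together, PAT3 replicates 5 and 7 gave 18 called genes in PAT3, 14 higher and 4 lower, and 6 in PAT1, in fits that called 41% and 21.2% of all genes.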

How the results depend on the processing

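Of 19 called differences, 2 (Tnfsf15 and Nfkbiz in PAT1) held under each of the 39 alternatives, and 112 of 737 values over all of them lost the call or changed direction. No paired analysis was possible because the replicate numbers follow sample order only. Counts are of the 39 TNF and NF-kB genes, with the share of all genes called in the same fit in parentheses, as the latter moved too. In PAT1, in place of 6 (18.5%), the number called was 10 with sample weights (24.9%), 3 with males alone (10.4%), 2 with females alone (4.2%), 12 without the 4 samples of lowest total (28.9%), and 4 to 6 with 1 sample left out (16.1% to 21.4%). In PAT3, in place of 13 (31.8%), it was 1 with the T cell marker mean as a covariate (1.65%), 20 with sample weights (52.5%), 8 with males alone (22.3%), 3 with females alone (10.4%), 20 without the 4 samples (46.1%), and 10 to 15 with 1 sample left out (27.1% to 38.6%). Between the PAT groups, in place of none (4.2%), it was 3 with sample weights (17%), 6 with males alone (23.6%), 2 without PAT3 replicates 5 and 7 (16.8%), and 0 to 2 with 1 sample left out (0 to 18.6%). For the test among the 3 groups, in place of 10 (34.6%), it was 3 with the T cell covariate (10.8%), 21 with sample weights (56.5%), 2 with females alone (6.76%), 17 without the 4 samples (45.2%), 18 without PAT3 replicates 5 and 7 (46.6%), and 8 to 13 with 1 sample left out (29.4% to 42.8%). After quantile normalization 5 genes were called higher in PAT1 and 1 lower, and in PAT3 9 and 2. Tnfsf14 in PAT1 turned to -0.32 with the size factor as a covariate, -0.067 with sample weights, -0.74 with females alone, -0.60 without the 4 samples, and -0.037 and -0.027 without PAT1 replicate 1 or 2 (up to 0.32 without another sample). With the T cell covariate, PAT3 differences turned to 0.51 for Tnfsf14, 0.29 for Cd27 and 0.28 for Cd40lg. The cause of these changes was not tested. Fits to 1 sex hold fewer samples than the main fit, and PAT3 held more females (6) than males (4). With 1 sample left out, the calls of Ikbkg, Tnfsf12 and Traf3 in PAT3 were lost, as given above. Also lost was Cd40lg (Control replicates 3, 4 and 5, PAT3 replicates 2, 4, 6 and 8). So was Tnfsf8 (Control replicates 1, 4, 5, 6 and 7, PAT3 replicates 1, 2, 3, 5, 6, 8 and 9). Traf2 was lost in PAT1 (Control replicates 2, 4 and 5, PAT1 replicates 3, 4 and 6). It was lost in PAT3 too (Control replicates 2, 4 and 5, PAT3 replicates 4 and 9). Tnfrsf9 was lost for all but Control replicate 1, PAT1 replicates 2, 3 and 6, and PAT3 replicates 1 and 7.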
